A study of Drosophila melanogaster with 12 samples.

Results

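The genes described here encode the cytosolic translation initiation and elongation factors of Drosophila melanogaster, and were taken as every gene whose symbol starts with eIF or eEF in the deposited count tables. There were 51 such genes among 17669 genes outside rRNA, all annotated as protein coding. Initiation factors bring the small ribosomal subunit and the initiator tRNA to the capped end of an mRNA. The eIF4 proteins bind the cap and unwind the leader, eIF3 is the large scaffold on the small subunit, and eIF1, eIF1A, eIF2 and eIF5 select the start codon. The exchange factor eIF2B recharges eIF2 with GTP, eIF5B joins the subunits, and eIF6 binds the large subunit and keeps it apart from the small subunit. In elongation, eEF1alpha delivers aminoacyl-tRNA, the eEF1B subunits (eEF1beta, eEF1gamma and eEF1delta) recharge it, eEF2 moves the ribosome along the mRNA, and eEF5, the fly eIF5A, eases peptide bonds that form slowly.

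RNA was taken from whole wandering larvae, in the third instar, of the wild type strain Oregon-R, as 3 samples of 40 pooled larvae each. The depleted RNA had been passed through Ribo-Pop, a capture of rRNA with biotinylated antisense oligos on streptavidin beads, and the input RNA was the same kind of total RNA without this step. Each was sequenced from random primers (NEBNext Ultra II Directional) and from poly(A) primers (QuantSeq, which reads the 3′ ends of mRNAs), giving 4 groups of 3 libraries: depleted and input, random-primed and poly(A)-primed. By the study's methods every RNA sample gave both an input and a depleted library, but no source used here says that equal replicate numbers mark the same sample, so tests were run without the pairing and counts with the replicate number as a block are given beside them. For the level of a gene in whole larvae, fewer cells of a type and less RNA per cell cannot be told apart.

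Random-primed libraries held 14264500 to 16889100 estimated counts after depletion and 16158600 to 16777700 in input, and rRNA took 27.2% ± 5.4 of them in depleted RNA and 96.7% ± 0.58 in input RNA (SD, n = 3 each). Outside rRNA, a mean of 11179400 counts in depleted random-primed libraries thus stood against 526868 in input libraries. Poly(A)-primed libraries held 2510490 to 4152450 counts of genes outside rRNA in depleted RNA and 3315070 to 5700890 in input RNA. Of their estimated counts, rRNA took 17.6% ± 8.7 in depleted and 10.8% ± 4.9 in input RNA (SD, n = 3 each). Single libraries ranged from 7.64% to 23.4% in depleted and from 5.09% to 13.8% in input RNA. Markers of 5 larval cell types were present in every group with no marker listed at 0 in all libraries of a group: the summed poly(A)-primed level of 12 spermatocyte markers, for example, was 138 to 213 CPM, or counts per 1000000 counts outside rRNA, in depleted libraries and 115.1 to 170.7 CPM in input libraries, and that of 6 salivary gland glue genes was 67921 to 108513 CPM in depleted libraries and 84244 to 112823 CPM in input libraries.

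The factor genes were among the strongly expressed genes of the larva. Together they made up 1.65% ± 0.044 of the poly(A)-primed counts in depleted RNA and 1.46% ± 0.043 in input RNA (SD, n = 3 each). The 3 depleted libraries ranged from 1.62% to 1.70% and the 3 input libraries from 1.41% to 1.5%, so the groups did not overlap. The exact two-sided permutation test gave p = 0.1, the smallest value that 3 libraries against 3 allow. The ratio of the means was 1.13. Poly(A)-primed CPM of all genes tested also sat higher in depleted RNA, by a median of 0.21 (log2). Of those genes, 23.4% had every depleted library above every input library. A higher CPM in depleted RNA was therefore not particular to the factor genes. Their share, however, is a sum in which a few genes weigh most. Mean CPM went from 2187 in input to 3319 in depleted RNA for eEF5. For eEF1alpha1 it went from 4546 to 5575, and for eEF1beta it fell from 1253 to 534. In random-primed libraries the share was 2.09% ± 0.16 in depleted RNA and 1.98% ± 0.18 in input RNA, with overlapping libraries (exact permutation p = 0.6). A poly(A)-primed library gives about the same number of reads per mRNA whatever its length, so its CPM are compared between genes directly. Random-primed reads grow with length, and their levels are given as CPM of spliced counts per kb of the longest transcript.

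The elongation factors held most of this total. eEF1alpha1 was the highest gene in every group and stood at 5325, 5806 and 5595 CPM in the 3 depleted poly(A)-primed libraries, against 4710, 4198 and 4729 CPM in input. It was followed by eEF5 at 3176, 2855 and 3926 CPM in depleted RNA, against 2145, 1725 and 2692 CPM in input. Next came eEF2 at 1982, 2094 and 1391 CPM in depleted RNA, against 2020, 1746 and 1503 CPM in input. No library of a lower gene among these overlapped one of a higher gene within the depleted poly(A)-primed group, and together the 3 genes took 65.0% of the member total in depleted RNA and 58.1% in input. eEF1gamma, a structural subunit of the exchange complex, averaged 696 ± 120 CPM, and eIF4A, the helicase that unwinds mRNA leaders, 555 ± 76 CPM (SD, n = 3 depleted libraries), and their libraries overlapped. In depleted random-primed libraries the same 5 genes led: eEF1alpha1 at 3946 ± 359, eEF5 at 1471 ± 315, eEF2 at 1085 ± 256, eIF4A at 571 ± 34 and eEF1gamma at 447 ± 71 CPM per kb (SD, n = 3). There eEF5 and eEF2 overlapped, with libraries from 1200 to 1816 and from 795 to 1276.

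The other roles covered overlapping ranges of level. The 13 eIF3 genes other than the minor paralogs eIF3d2, eIF3f2 and eIF3g2 lay between 70.4 CPM for eIF3h and 214 CPM for eIF3f1 in depleted poly(A)-primed RNA, a 3.04-fold range, although their proteins form a single complex. In depleted random-primed RNA they spanned a 3.54-fold range, with eIF3c lowest at 49.4 and eIF3b highest at 175 CPM per kb. The 3 subunits of eIF2 were more unequal in depleted poly(A)-primed RNA, where eIF2beta averaged 361, eIF2alpha 108 and eIF2gamma 57.2 CPM. In depleted random-primed RNA they were less unequal than eIF3, with a 2.44-fold range. There eIF2alpha was lowest at 46.3 and eIF2beta highest at 113 CPM per kb. The 5 eIF2B genes lay lower in depleted poly(A)-primed RNA, between 13.7 CPM for eIF2Bepsilon, the catalytic subunit, and 40.6 CPM for eIF2Bbeta. eIF6 averaged 23.1 ± 4.5 CPM in depleted RNA and 20.5 ± 3.9 CPM in input (SD, n = 3 each). Across the 51 genes the median was 71.7 CPM in depleted and 71.2 CPM in input poly(A)-primed RNA, and 29 of the 51 genes were in the upper 10% of all genes in the depleted libraries. The order of the genes in the depleted libraries was much the same under both primings. Spearman's rho was 0.95 across the 51 genes between Kallisto CPM of poly(A)-primed and per kb levels of random-primed libraries. This is a description only, since by the study both library types were made from the same RNA samples.

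**Figure D1:**
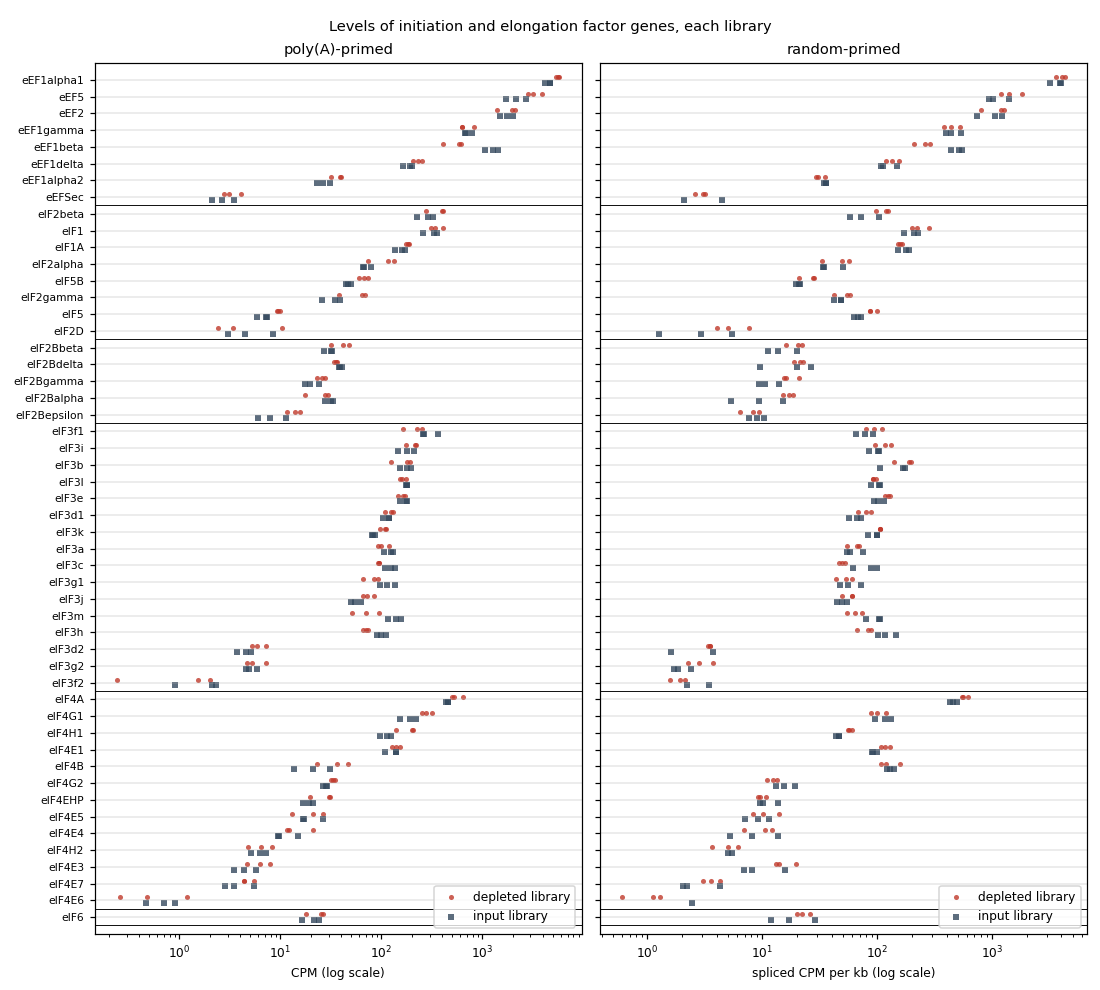
Level of each initiation and elongation factor gene in each library, grouped by role from elongation factors at the top to eIF6 at the bottom, on log axes: poly(A)-primed CPM at left and random-primed spliced CPM per kb at right. Red circles are depleted libraries and dark squares are input libraries, and values of 0 are not drawn; eEF1alpha1 leads at 5575 CPM in depleted RNA on average and eIF4E6 is lowest at 0.645 CPM.

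At the other end, eIF4E6 had the lowest level, with 0.482, 0.257 and 1.19 CPM in depleted poly(A)-primed libraries and 0.465, 0.702 and 0.905 CPM in input. eIF3f2 averaged 1.26 CPM in depleted RNA, eEFSec, which delivers selenocysteine tRNA, 3.35 CPM, eIF4E7 4.76 CPM and eIF2D, a factor that can place initiator tRNA without eIF2, 5.35 CPM. In depleted random-primed libraries the lowest 5 were eIF4E6 at 1.01, eIF3f2 at 1.88, eIF3g2 at 2.92, eEFSec at 2.94 and eIF3d2 at 3.47 CPM per kb. At least 10 counts in all 3 libraries were found for 50 of 51 genes in depleted random-primed RNA, against 35 in input random-primed RNA, where 4 of the 5 eIF2B genes and eIF6 were among the 16 that missed it, and for 47 in depleted poly(A)-primed RNA, against 48 in input. Of all 17669 genes, 65.0% reached this minimum in depleted and 26.1% in input random-primed RNA, and 47.7% in depleted and 48.7% in input poly(A)-primed RNA.

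Paralogs of the same factor differed widely in level. The eIF4E family has 7 genes: eIF4E1, the general cap-binding protein, its relatives eIF4E3 to eIF4E7, and eIF4EHP, which binds the cap without eIF4G and represses translation. eIF4E1 held 70.9%, 64.0% and 62.3% of the family's counts in depleted poly(A)-primed libraries, against 73.4%, 66.8% and 65.3% in input, and the groups overlapped (exact permutation p = 0.5). In random-primed libraries it held 70.0% ± 2.3 per kb in depleted RNA and 68.7% ± 7.1 in input (SD, n = 3 each; exact permutation p = 0.9). eIF4EHP was second in depleted poly(A)-primed RNA at 12.6% ± 2.5, followed by eIF4E5 at 9.36% ± 2.4, eIF4E4 at 6.85% ± 1.6, eIF4E3 at 2.92% ± 0.54, eIF4E7 at 2.27% ± 0.52 and eIF4E6 at 0.288% ± 0.18. In depleted random-primed RNA eIF4E3 held 9.23% ± 0.89 per kb, eIF4E5 6.35% ± 0.85, eIF4EHP 5.85% ± 0.28, eIF4E4 5.81% ± 0.99, eIF4E7 2.15% ± 0.094 and eIF4E6 0.594% ± 0.19. The libraries of eIF4E5, eIF4EHP and eIF4E4 overlapped there, while eIF4E3, known for its role in the male germline, lay above all of them. The place of eIF4EHP rests on the length assigned to it. Without division by length it held 14.9% ± 0.50 of the depleted random-primed counts and was second again. eIF4E3 then held 5.39% ± 0.58, eIF4E5 3.64% and eIF4E4 3.37%. Between depleted and input, only the share of eIF4EHP did not overlap, and only in random-primed libraries. Per kb it held 5.79%, 6.16% and 5.61% in depleted and 7.38%, 7.62% and 9.25% in input libraries (exact permutation p = 0.1, the smallest possible).

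**Figure D2:**
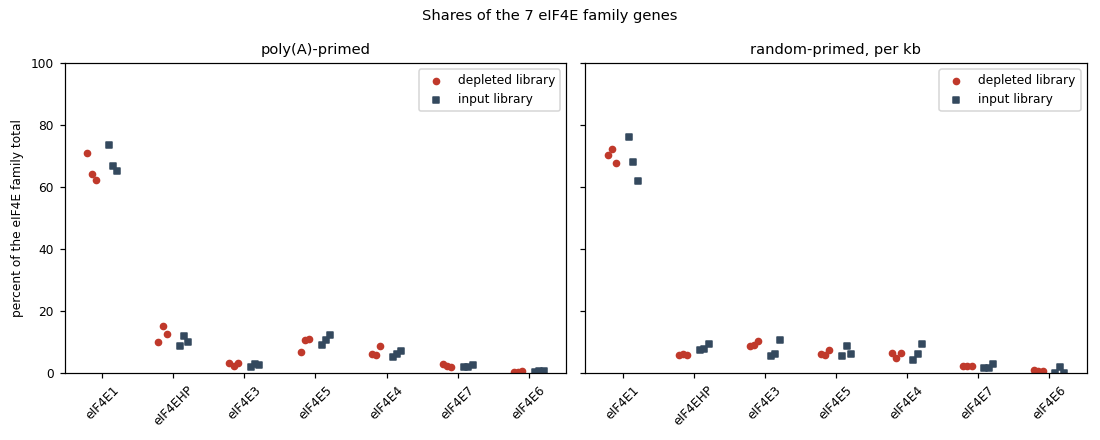
Percent of the eIF4E family total held by each of its 7 genes in each library, for poly(A)-primed counts at left and random-primed counts per kb at right, with depleted libraries as red circles and input libraries as dark squares. eIF4E1 holds 62.3% to 70.9% in the depleted poly(A)-primed libraries, and eIF4E3 holds 9.23% on average in the depleted random-primed libraries, against 2.92% in the depleted poly(A)-primed ones.

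In the 6 other families, which each have a pair of genes, the major gene held at least 85.3% of the HTSeq counts in every poly(A)-primed library and of the counts per kb in every random-primed library. eIF4G1, the scaffold between cap-binding protein, helicase and eIF3, held 88.8%, 88.8% and 90.6% of the eIF4G counts in depleted poly(A)-primed libraries and 87.3%, 85.3% and 88.4% in input, with eIF4G2, a paralog used in spermatocytes, holding the rest. The groups did not overlap (exact permutation p = 0.1, the smallest possible), but in random-primed libraries they did, at 89.2% ± 2.1 in depleted and 87.9% ± 0.45 in input RNA (SD, n = 3 each). eIF3d1, the cap-contacting eIF3 subunit, held 95.2% ± 0.38 of the eIF3d counts in depleted and 96.2% ± 0.68 in input poly(A)-primed RNA, again without overlap and with p = 0.1 (exact permutation), and eIF3d2 held the remainder. With Kallisto counts of the same poly(A)-primed libraries both overlapped (exact permutation p = 0.3 for eIF4G1 and 0.2 for eIF3d1), and input shares of eIF4G1 reached down to 81.7%. eIF4H1, a cofactor of the helicase, held 96.5% in depleted and 94.7% in input poly(A)-primed RNA, where eIF4H2 held 3.54% and 5.34%. eIF3f1 held 99.4% in both, and eIF3g1 held 93.4% in depleted and 95.8% in input, which overlapped, although with Kallisto counts, at 93.9% and 96.2%, they did not (exact permutation p = 0.1). eEF1alpha1 held 99.3% of the eEF1alpha counts in depleted and 99.4% in input, and its paralog eEF1alpha2 averaged 37.0 ± 4.3 CPM in depleted and 26.9 ± 3.9 CPM in input (SD, n = 3 each). Over the 7 families, the leading gene's share did not overlap between depleted and input for 2 families in poly(A)-primed and for 1 (eEF1alpha) in random-primed libraries. With no true difference, 3 libraries against 3 would still separate with a probability of 0.1 in each family. No share over all genes stands beside these counts. Paralogs share sequence, so reads from stretches that do not differ could be split or dropped by the counting.

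Depletion left most factor mRNAs near their input levels, and the ones that passed the test without a replicate block were all lower in depleted RNA. The comparison shows how counts differ between depleted and input libraries, not whether an RNA was captured along with rRNA. Less RNA entered the depleted poly(A)-primed libraries than the input ones. The study found no excess complementarity of its decreased genes to the probes or to rRNA. It proposes that differences between the RNA pools may alter recovery during library preparation. The cause of a member's change was not tested here. In poly(A)-primed libraries, 49 of the 51 genes passed the filter on low counts, and 43 of them lay within 1.5-fold of input. By edgeR's quasi-likelihood test on the HTSeq counts, 5 were lower and 0 higher at an adjusted p under 0.05 (Benjamini-Hochberg, 9530 genes). Of all genes tested 3.85% were lower and 0.997% higher, 4.85% in either direction, against 10.2% of the members. An unadjusted p under 0.05 was found for 14 members, 10 of them lower, and DESeq2 called 4 lower and 0 higher. The median log2 fold change of the members was 0.07, against 0.02 over all genes. With the replicate number as a block, 10 members were lower and 7 higher, with 1889 calls over all genes. The same 5 were among the lower ones, joined by eIF3f1, eIF3a (-0.41), eIF3l (-0.32), eIF3b (-0.29) and eIF2Balpha (-0.48), and the higher ones were eIF2gamma (0.58), eIF4B (0.52), eIF4H1 (0.50), eEF5 (0.42), eIF4G1 (0.40), eIF2alpha (0.39) and eIF5B (0.33).

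eEF1beta, the nucleotide exchange subunit for eEF1alpha (FBgn0028737, 2 exons, chromosome 2R from 16868222 to 16869280 on the plus strand of BDGP6.54), had the largest decrease. Its HTSeq counts were 2530, 2272 and 1025 in depleted poly(A)-primed libraries, or 609, 585 and 408 CPM, against 5453, 8186 and 3499 counts in input, or 1268, 1436 and 1055 CPM. Every depleted library lay below every input library, and the fitted log2 fold change was -1.43 (SE 0.19, edgeR adjusted p = 0.000684), 2.69-fold lower. The companion subunits of the same complex gave -0.25 for eEF1gamma (SE 0.16, edgeR adjusted p = 0.401) and 0.13 for eEF1delta, and neither passed the test.

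The remaining 4 encode subunits of eIF3. eIF3m (FBgn0033902, chromosome 2R from 14163066 to 14164825, minus strand) had 69.8, 93.9 and 51.4 CPM in depleted libraries, against 141, 157 and 117 CPM in input, a log2 fold change of -1.14 (SE 0.20, edgeR adjusted p = 0.00469). eIF3h (FBgn0022023, chromosome 2L from 5051193 to 5053094, minus strand) had 65.7, 71.3 and 74.1 CPM in depleted libraries, against 99.3, 112 and 89.9 CPM in input, a change of -0.71 (SE 0.15, edgeR adjusted p = 0.0180). Of these subunits, eIF3m carries a PCI domain and eIF3h an MPN domain, the folds that build the core of the complex. eIF3g1, an RNA-binding subunit on the X chromosome, had 84.5, 92.9 and 66.1 CPM in depleted libraries, against 114, 137 and 97.7 CPM in input, a change of -0.71 (SE 0.17, edgeR adjusted p = 0.0338). eIF3c, a core subunit encoded on 2R, had 94.2, 91.9 and 95.2 CPM in depleted libraries, against 124, 136 and 108 CPM in input, a change of -0.58 (SE 0.15, edgeR adjusted p = 0.0433). None of the 4 overlapped between groups. eIF3f1 missed the threshold at -0.66 (SE 0.19, edgeR adjusted p = 0.0639), and eIF3a, the largest subunit of the complex, gave -0.41 (SE 0.15, edgeR adjusted p = 0.150). Of the 15 eIF3 genes tested, 11 had a value below 0, against 4615 of the 9530 genes tested, and their median was -0.28. In random-primed RNA 6 of 16 eIF3 genes had a value below 0, against 4806 of 10893, and their median was 0.14.

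Counted without a model, 8 of the 49 members had all 3 depleted poly(A)-primed libraries below all 3 input libraries in CPM, 16.3% against 7.73% of all genes tested, and 15 had them all above, 30.6% against 23.4% of all genes. These CPM sit higher in depleted RNA by 0.21 (log2) over all genes tested, a shift that the fitted values remove. The calls for eIF3h, eIF3g1 and eIF3c were lost in most omissions of 1 library. All were kept without input replicate 3 (edgeR adjusted p = 0.0106, 0.0120 and 0.0269). That of eIF3h was also kept without depleted replicate 3 (edgeR adjusted p = 0.0231). The fitted changes of these genes stayed below 0 in every omission. These ranged from -0.62 to -0.78 for eIF3h, -0.57 to -0.82 for eIF3g1 and -0.49 to -0.66 for eIF3c. Calls over all genes ranged from 144 to 561 in the omissions, against 462 with every library. Leaving out depleted replicate 1 gave edgeR adjusted p = 0.0894 for eIF3h, 0.0985 for eIF3g1 and 0.123 for eIF3c, and they also missed the threshold without depleted replicate 2 (0.0851, 0.0878 and 0.158), without input replicate 1 (0.0937, 0.124 and 0.164) and without input replicate 2 (0.0688, 0.119 and 0.148), as eIF3g1 and eIF3c did without depleted replicate 3 (0.0860 and 0.0699). eEF1beta and eIF3m kept an adjusted p under 0.05 in each of the 6 omissions, up to 0.00994 and 0.0409. With libraries scaled by the spike-in RNAs, only eEF1beta passed (edgeR adjusted p = 0.0178). The other changes were of similar size there with larger errors, at -1.17 for eIF3m (SE 0.30, edgeR adjusted p = 0.0776), -0.78 for eIF3h (SE 0.22), -0.76 for eIF3g1 (SE 0.26) and -0.65 for eIF3c (SE 0.22).

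**Figure D3:**
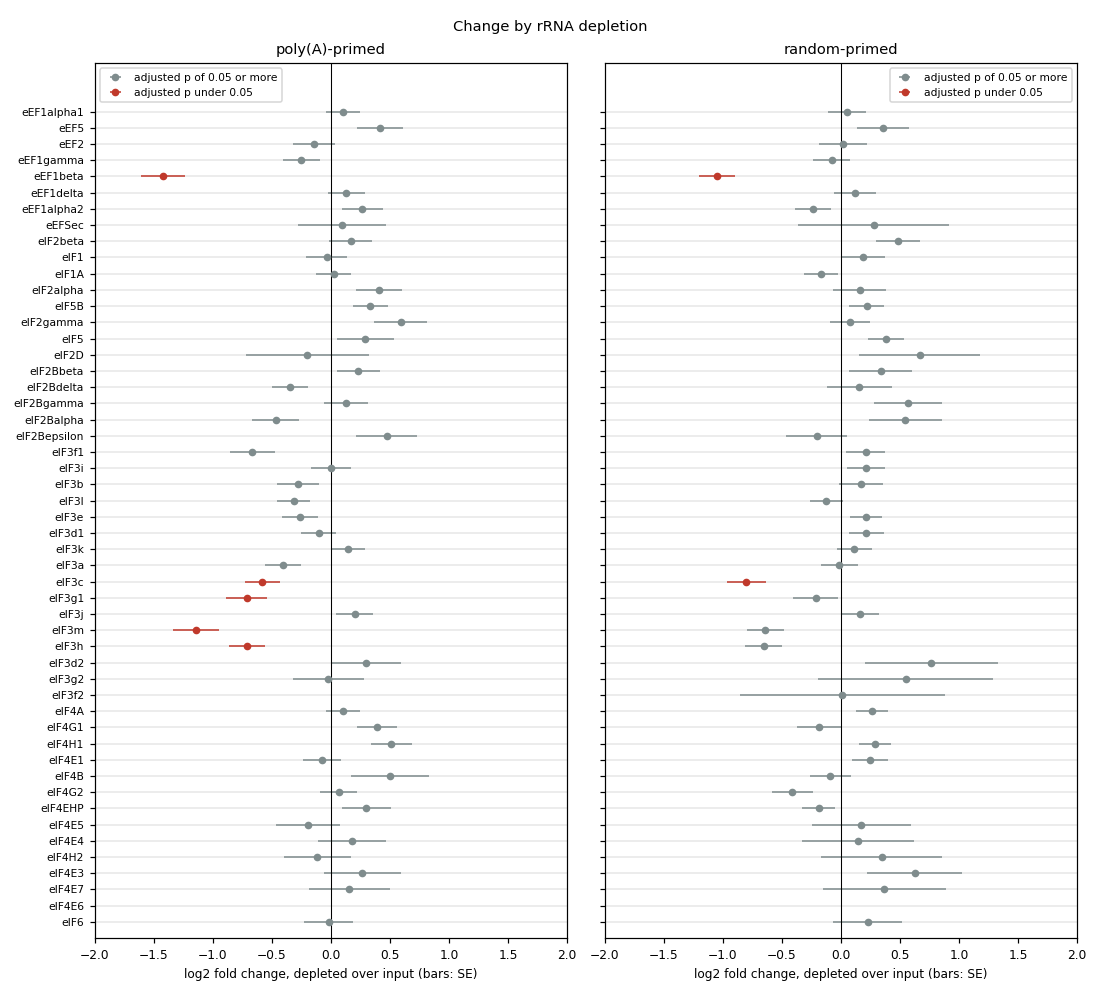
Log2 fold change of depleted over input RNA for each gene, with poly(A)-primed libraries at left and random-primed libraries at right; bars are standard errors of the edgeR fit, and red points have an adjusted p under 0.05. All 5 red points at left and both at right lie below 0, and eEF1beta is lowest in each, at -1.43 and -1.05.

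In random-primed libraries, which also cover the bodies of the transcripts, eEF1beta was lower again. By the study these libraries came from the same RNA samples as the poly(A)-primed ones, so this is not an independent replication. Of 50 members tested, 2 were lower and 0 higher at an edgeR adjusted p under 0.05, 4% of the members against 2.34% of the 10893 genes tested, of which 2.28% were lower and 0.0643% higher. The rounded estimated counts of eEF1beta were 3111, 3307 and 1799 in depleted libraries, or 250, 274 and 199 CPM, against 292, 295 and 181 in input, or 525, 495 and 423 CPM. The groups did not overlap, and the log2 fold change was -1.05 (SE 0.15, edgeR adjusted p = 0.00186), 2.07-fold lower. eIF3c had 153, 171 and 163 CPM in depleted libraries, against 289, 329 and 201 CPM in input, without overlap and with a change of -0.80 (SE 0.17, edgeR adjusted p = 0.0239).

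The other eIF3 genes called in poly(A)-primed RNA did not pass here. eIF3h had 125, 134 and 100 CPM in depleted libraries, against 176, 216 and 152 CPM in input (log2 fold change -0.66, SE 0.16, edgeR adjusted p = 0.0535), and eIF3m had 103, 118 and 86.5 CPM in depleted libraries, against 169, 164 and 126 CPM in input (-0.64, SE 0.16, edgeR adjusted p = 0.0608). Neither gene's groups overlapped. eIF3g1 gave -0.21 (SE 0.19) with overlapping libraries. In all, 4 of the 50 members had every depleted library below every input library in CPM, 8% against 8.28% of all genes, and 8 had them all above, 16% against 12.5%. The median change of the members was 0.16, against 0.06 over all genes. 43 of the 50 were within 1.5-fold. An unadjusted p under 0.05 was found for 7, and DESeq2 called 4 lower and 0 higher. With the replicate number as a block, 5 were lower and 4 higher, with 857 calls over all genes: eEF1beta (-1.04), eIF3c (-0.82), eIF3h (-0.65), eIF3m (-0.63) and eIF4G1 (-0.19) were lower, and eIF2beta (0.48), eIF5 (0.37), eEF5 (0.35) and eIF4A (0.26) higher. eIF3c lost its call without depleted replicate 1 (edgeR adjusted p = 0.130), without input replicate 1 (0.182) and without input replicate 2 (0.193), and with spike-in scaling no member passed, eEF1beta included (-1.19, SE 0.32, edgeR adjusted p = 0.157).

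**Figure D4:**
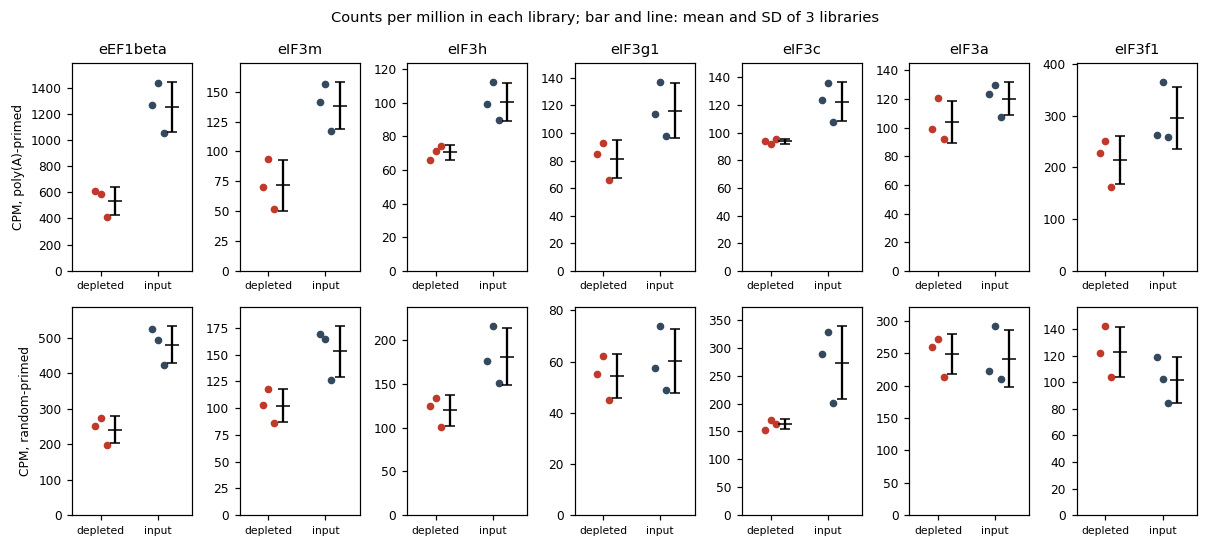
CPM of 7 genes in each library, poly(A)-primed in the upper row (HTSeq) and random-primed in the lower row (Kallisto), with depleted libraries in red at left of each panel and input libraries in dark at right; the black mark and line are the mean and SD of 3 libraries, and each axis starts at 0. eEF1beta, eIF3m, eIF3h and eIF3c show no overlap in either row. eIF3a is shown as the reference subunit of the complex. eIF3f1 is shown as the member nearest the threshold in poly(A)-primed RNA among those that missed it.

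The changes seen under the 2 primings were then compared with each other in a single model of all 12 libraries. Without the replicate block, the model took the libraries as independent, although each RNA sample gave several of them. No member passed the test of a different change by priming among 49 tested (edgeR adjusted p under 0.05; 0.456% of 11175 genes passed), 8 had an unadjusted p under 0.05, and DESeq2 called 0 members. For eIF3m, which was called in poly(A)-primed RNA only, the random-primed change minus the poly(A)-primed change was 0.66 (SE 0.27, edgeR adjusted p = 0.345), and for eIF3f1 it was 0.99 (SE 0.27, edgeR adjusted p = 0.125). With no filter on low counts eIF3f1 passed (edgeR adjusted p = 0.0228). With the replicate number as a block, 8 members had a positive difference that passed, eIF3m and eIF3f1 among them, and 1, eIF4G1 (-0.44), a negative one, with 754 calls over all genes. The median of this difference was 0.16 over all genes under TMM scaling and 0.00 under DESeq2's size factors, so a member's value is to be read against that shift. Across the 49 members, Spearman's rho between the changes under both primings was 0.246, and 8 members lay below 0 in both: eEF1beta, eEF1gamma, eIF3a, eIF3c, eIF3g1, eIF3h, eIF3l and eIF3m. The input random-primed libraries held only 21 to 44 counts for eIF3g1 and 36 to 66 for eIF3f1, which limits what could be seen there.

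Other genes of the translation pathway gave no call in either depletion comparison by edgeR. Over the lists named here, 4 of 31 genes tested in poly(A)-primed and 3 of 33 in random-primed RNA had an unadjusted p under 0.05, and DESeq2 called 1 gene (Thor) in poly(A)-primed RNA and 0 in random-primed RNA. None of 9 cap and poly(A) regulators tested in poly(A)-primed RNA passed, nor any of 10 in random-primed RNA. Among them, the eIF4E-binding repressor Thor gave -0.50 (SE 0.14, edgeR adjusted p = 0.0614) in poly(A)-primed and 0.10 (SE 0.14) in random-primed RNA, and the poly(A)-binding protein gene pAbp 0.25 (SE 0.15) and -0.05 (SE 0.15). The 7 genes of eIF2 control, the 2 hypusine enzymes that modify eEF5 and the 5 termination and recycling genes likewise held 0 calls in both, as did the mitochondrial factors, of which 8 and 9 were tested. Of the markers, 3 of 6 salivary gland genes were lower in depleted RNA under each priming, 1 of 5 fat body genes was lower in poly(A)-primed RNA, and spermatocyte, neuron and muscle markers gave 0 calls by edgeR and by DESeq2, with 2 neuron markers at an unadjusted p under 0.05 under each priming and 1 spermatocyte marker in random-primed RNA. The part of these markers in the member changes was not tested.

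More members were called between random-primed and poly(A)-primed libraries than between depleted and input libraries. By the study's methods, these library types also differed in kit, RNA amount and PCR cycles. The part of priming alone was not tested. In depleted RNA, random-primed counts were set against poly(A)-primed counts with transcript length as an offset, so that both are on a scale per molecule. Of 50 members tested, 8 were higher and 9 lower in random-primed libraries (edgeR adjusted p under 0.05), 34% against 40.9% of 11409 genes, of which 19.6% were higher and 21.3% lower. With the replicate number as a block, 14 were higher and 17 lower, with 6442 calls over all genes.

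eIF4E3 had the largest positive difference, with 14.1, 13.2 and 19.5 random-primed CPM per kb against 7.62, 5.72 and 9.62 poly(A)-primed CPM. Its fitted log2 difference was 1.47 (SE 0.26, edgeR adjusted p = 0.00113). The levels printed here are in different units, spliced CPM per kb against CPM, and the fit rescales the libraries. The fitted differences therefore cannot be read off these levels directly. eIF1A, which scans with eIF1 for the start codon, followed with 0.73 (SE 0.13, edgeR adjusted p = 0.00134), and eIF3h with 0.72 (SE 0.14, edgeR adjusted p = 0.00206). eIF3b, a core eIF3 subunit, gave 0.60 (SE 0.18) and eIF6 0.59 (SE 0.20), while eIF4A, eIF4EHP and eIF3k gave 0.58, 0.46 and 0.45. The largest negative difference was that of eIF4G2, with 13.4, 12.5 and 10.9 random-primed CPM per kb against 39.5, 42.4 and 40.9 poly(A)-primed CPM, a log2 difference of -1.28 (SE 0.14, edgeR adjusted p = 3.13e-05). eIF4H1 gave -1.17 (SE 0.16), eIF2beta -1.15 (SE 0.17), eIF4G1 -0.96 (SE 0.17) and eIF5B -0.81 (SE 0.15), with edgeR adjusted p between 0.000201 and 0.00122, and eIF2alpha, eIF3f1, eEF5 and eEF1beta lay between -0.76 and -0.62. Both eIF4G scaffolds, 2 of the 3 eIF2 subunits and the subunit-joining factor eIF5B were therefore lower in random-primed than in poly(A)-primed libraries per kb.

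These values depended on the length term. Across the 50 members, Spearman's rho between the priming difference and transcript length was 0.755 without the length offset and -0.10 with it, against 0.721 and -0.02 over all genes tested, which share the same libraries. Without the offset, 5 of the 17 called members took the other sign: eIF4G2 had 0.91, eIF4G1 0.75, eIF5B 0.37, eIF3k -0.73 and eIF6 -0.28. eIF4H1 at -0.16 and eIF4E3 at 0.57 kept their sign and no longer passed. With the median transcript length in place of the longest, an alternative chosen after seeing the data, 7 were higher and 12 lower, and eIF3k (0.35, edgeR adjusted p = 0.0520) and eIF6 (0.49, edgeR adjusted p = 0.0680) no longer passed, while eIF4EHP had 1.45. eIF4EHP depended on intronic reads as well: with spliced counts alone it gave -0.99 (SE 0.17, edgeR adjusted p = 0.00100). The annotated lengths came from a later annotation than the counts, and eIF4EHP has transcripts from 1324 to 4539 bases.

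**Figure D5:**
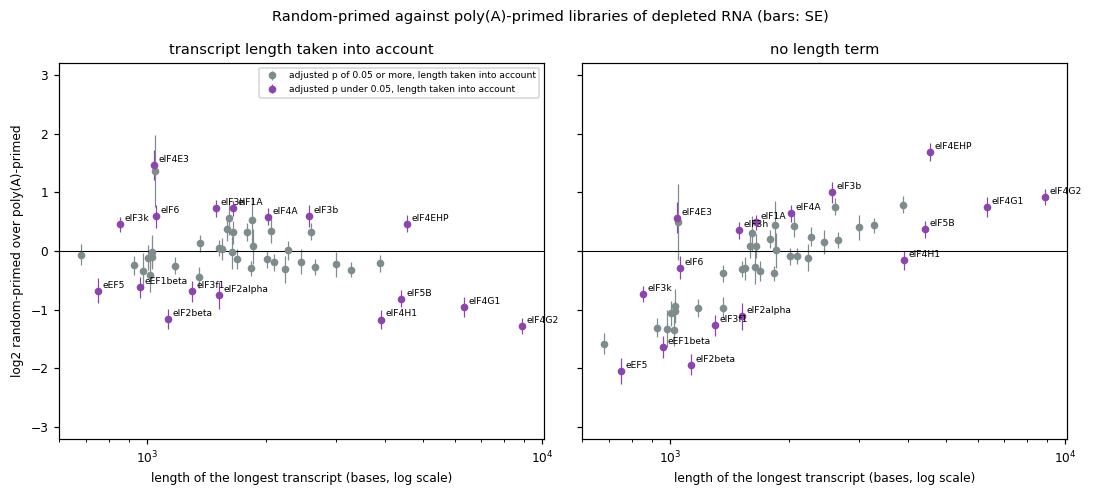
Log2 difference of random-primed over poly(A)-primed libraries of depleted RNA against the length of the longest transcript (log axis), with the length offset at left and without it at right; bars are standard errors, and purple, named genes have an adjusted p under 0.05 in the fit with the offset. Without the offset the values climb with length (Spearman's rho 0.755 across 50 genes), and with it they do not (rho -0.10).

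Intronic reads were few for most of these genes. In depleted random-primed libraries they made up 1.59% ± 0.26 of the members' counts, against 7.56% ± 0.58 of those of all genes (SD, n = 3 each). Among genes with more than 1 exon and a mean of at least 50 counts, the median share was 0.525% for 46 members and 1.44% for 8250 genes. Of all members, 10 had no intronic count, and 3 of these (eIF3f1, eIF3g2 and eIF6) have a single annotated exon. The exceptions in these libraries were eIF4EHP at 73.8% ± 1.1, eIF4B, an RNA-binding helper of eIF4A, at 15.1% ± 2.5, and eIF5B at 13.04% ± 1.6 (SD, n = 3). In depleted poly(A)-primed libraries the highest mean shares were 41.6% for eIF4H2, 27.4% for eIF4EHP and 12.4% for eIF3c. That of eIF4H2 rested on 10.1, 10.9 and 4.72 intronic counts. eIF4EHP spans chromosome 3R from 24063077 to 24108960 in BDGP6.54 and shares its strand there with Syx1A, so reads of the overlap cannot be told apart by strand alone.

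The counting method mattered for a pair of members. Over the poly(A)-primed libraries, the Kallisto estimate and the HTSeq count lay within 1.5-fold of each other for 49 of 51 genes, with a median ratio of 0.942, against 0.949 over 9188 genes. eIF5, the GTPase activator of eIF2, had a mean of 483 counts by Kallisto and 32 by HTSeq, 15.1-fold more, and eIF4B had 536 and 104, 5.14-fold more. A ratio of at least 5 was reached by 0.327% of those genes. In BDGP6.54, a later annotation than that of the counts, CG46312 overlaps eIF5 on the same strand, and eIF4B has no such partner. HTSeq's default setting leaves out reads that fall on more than 1 gene. The cause of either gap was not tested. The poly(A)-primed CPM of both genes are therefore uncertain, such as that of eIF5 at 9.52 ± 0.36 CPM in depleted and 6.81 ± 0.86 CPM in input RNA (SD, n = 3 each).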

How the data were processed

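The authors trimmed adapters and assigned reads by strand with Kallisto to Ensembl release 99 (BDGP6.28) transcripts, spike-ins and introns, and these estimated counts were deposited per gene for 12 libraries. From STAR alignments of the 6 poly(A)-primed libraries, the authors deposited raw counts of unique reads (htseq-count, default settings). Neither was normalized. A table of the authors' own DESeq2 comparison (fold changes, p-values) was not used. The 5 summary lines of the HTSeq table took 7.81% to 9.88% of the reads and entered nothing.

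Libraries were grouped by their labels, and no table column stayed unmapped. Estimated counts were rounded for tests and split into spliced and intronic parts for levels. Members and gene lists were chosen with earlier results of these data known. Genes were named with values if they had the 5 largest changes in either direction among those called, the 5 highest or lowest levels, a paralog in the family, or stood for a complex; others were named after their values were seen. Tests used edgeR 4.0.16 in R 4.3.3 (quasi-likelihood, robust, TMM, filterByExpr, Benjamini-Hochberg, adjusted p under 0.05), fitted to the groups compared, after being tested on simulated data. The poly(A)-primed comparison used HTSeq counts and the others Kallisto counts without rRNA and spike-ins. The priming comparison had log length (longest transcript, Ensembl release 115, BDGP6.54; all 51 members matched) as an offset in the random-primed libraries. For shares, scipy 1.17.1 gave the exact permutation p (two-sided). Alternatives were size factors of DESeq2 (1.42.0), spike-in scaling with 7 spike-in genes, DESeq2 itself, no filter, an adjusted p under 0.01, the other count table or spliced counts, no length offset, the replicate number as a block, leaving out each library and, added after seeing the data, the median transcript length. With totals of 428039 to 12422400 counts outside rRNA, the 95% Wilson interval of the members' share in a single Kallisto library was 1.73% to 1.81% at the lowest depth; such intervals cover counting error only. P-values measure the spread between libraries of 3 RNA samples, each of which gave input and depleted libraries by the study's methods.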

Additional observations from a re-analysis of the deposited data

How the results depend on the processing

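Below, counts are of members unless all genes are named. In poly(A)-primed depletion, where 5 members were lower and all genes held 462 calls, an adjusted p under 0.01 left 2 lower (all genes 157), spike-in scaling 1 (123) and Kallisto counts 3; leaving out each library gave 2 to 6 lower, 0 higher and 144 to 561 over all genes. In random-primed depletion, where 2 members were lower and all genes held 255 calls, an adjusted p under 0.01 left 1 (157), spike-in scaling 0 (162), DESeq2's size factors gave 4 and DESeq2 gave 4 (413); leaving out each library gave 1 to 4 lower, 0 higher and 143 to 297 over all genes. For priming, with 8 higher and 9 lower and 4665 calls over all genes, an adjusted p under 0.01 left 4 higher (2911) and no length offset gave 17 lower (7768); leaving out each library gave 4 to 7 higher, 6 to 10 lower and 3349 to 4645 over all genes. The signs of eIF4G1 (0.75), eIF4G2 (0.91), eIF5B (0.37), eIF3k (-0.73) and eIF6 (-0.28) turned without the length offset, and that of eIF4EHP (-0.99) with spliced counts only. For the difference between primings, with 0 members and 51 calls over all genes, an adjusted p under 0.01 left 11, DESeq2's size factors 26, DESeq2 118, and no filter 171 with 1 member higher; leaving out each library gave 13 to 52 over all genes and 0 members either way. At 50 counts or more, 23 members were detected in input random-primed libraries. The families whose leading share did not overlap numbered 1 with Kallisto counts in poly(A)-primed RNA; leaving out each library gave 2 to 5 in poly(A)-primed and 1 to 3 in random-primed RNA. Except where a setting leaves fewer libraries or sets a stricter threshold, the cause of these shifts was not tested.

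Input and depleted libraries came from the same 3 RNA samples. With the replicate block, poly(A)-primed depletion gave 7 members higher and 10 lower (all genes 1889), random-primed depletion 4 and 5 (857), priming 14 and 17, and the difference between primings 8 and 1 (754). Whether equal numbers mark the same RNA sample is not stated in the sources used here, and same-numbered deviations correlated at 0.058, 0.340 and 0.594 in poly(A)-primed and 0.097, 0.302 and 0.378 in random-primed libraries, so the pairing was kept as an alternative; in both, depleted replicate 1 correlated better with input replicate 2 than with input replicate 1. Spike-in scaling of the priming comparison was not run, since it needs spike-in lengths. The limit throughout was 3 libraries a group and, in input random-primed libraries, the small number of counts outside rRNA.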

Other observations

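Intronic counts of eEF5, summed over its introns, stood apart in poly(A)-primed libraries. Intronic estimated counts of eEF5 were 1, 3 and 2 in the depleted poly(A)-primed libraries, against 272, 452 and 173 in the input poly(A)-primed libraries, while random-primed libraries had 98, 81 and 106 in depleted RNA and 1, 2 and 3 in input. In CPM this was 0.607 ± 0.32 in depleted and 64.8 ± 14 in input poly(A)-primed RNA, and 8.77 ± 2.6 in depleted and 4.05 ± 2.7 in input random-primed RNA (SD, n = 3 each). The groups did not overlap in poly(A)-primed RNA. Among 371 genes with a mean of at least 50 intronic counts in input poly(A)-primed libraries, eEF5 was the only gene at least 5-fold lower after depletion, and the median ratio of depleted to input was 1.03. The intronic share of all members together was 0.404% ± 0.025 in depleted and 0.825% ± 0.20 in input poly(A)-primed libraries (SD, n = 3 each). The spliced counts of eEF5 did not follow it, since the gene's HTSeq change was 0.41 (SE 0.19). The annotation of BDGP6.54 places lncRNA:CR44814 on the opposite strand of the gene. Which sequence these counts come from was not tested.

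Intronic counts of eEF2 stood apart in random-primed libraries. They were 270, 278 and 296 in depleted libraries, against 65, 70 and 77 in input, or 25.8 ± 6.0 and 138 ± 36 CPM (SD, n = 3 each), so depleted libraries held 0.187 of the input level and did not overlap with it. Of 177 genes with a mean of at least 50 intronic counts in input random-primed libraries, 6 were at least 5-fold lower after depletion, eEF2 among them, and the median ratio was 0.872. The spliced part of eEF2 gave 1185, 1276 and 795 CPM per kb in depleted and 1049, 1211 and 733 in input libraries. The small RNA gene snmRNA:254 lies on the same strand within eEF2. Both genes were chosen after their values were seen.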
